A study of Rattus norvegicus with 63 samples.

Results

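The genes examined here build, anchor and remodel the extracellular matrix of rat liver. Collagens and laminins form its fibres and basement membranes, integrins are the receptors that hold cells to them, matrix metalloproteinases (MMPs) cut them and tissue inhibitors of metalloproteinases (TIMPs) hold the MMPs in check. In healthy liver most fibre-forming collagen is made by hepatic stellate cells, which also store vitamin A, and by portal fibroblasts, while the thin matrix along the sinusoids is shared with the endothelium. All genes on the array were taken whose single annotated symbol begins with Col, Lama, Lamb, Lamc, Itga, Itgb, Mmp or Timp in the form used for these families, together with Dcn, Lum, Bgn, Fn1, Sparc, Sparcl1, Vim and Lrat. That gave 78 of the 10411 genes that carry a single symbol: 10 fibrillar collagens, 4 basement membrane collagens, 15 other collagens, 8 laminins, 13 integrins, 3 integrin-binding proteins that enter by symbol only (Itgb1bp1, Itgb1bp2 and Itgb3bp), 14 MMPs, 3 TIMPs, 3 small leucine-rich proteoglycans and 5 others.

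Livers came from male Wistar Hanover rats of 8 to 10 weeks, dosed daily by gavage and profiled on 63 Affymetrix RAE230A arrays, 1 animal each. Every group held 3 arrays. The 3 animals of each treated group had been picked from the 5 dosed because their livers showed some change under the microscope, so they are no random draw of the group; how the control animals were picked is not given in the sources used here. The non-genotoxic carcinogens (NGC) were acetamide (AA, 3000 mg/kg/day for 14 days), dehydroepiandrosterone (DHEA, 600 for 14 days), methylcarbamate (Mcarb, 400 for 14 days), methapyrilene (MPy, 60 for 7 days), diethylstilbestrol (DES, 10 for 3 days), piperonylbutoxide (PBO, 1200 for 3 days), ethionine (ETH, 200 for 14 days) and phenobarbital (PB, 14 days, no dose in the labels). The genotoxic carcinogens (GC) were C.I. Direct Black (CIDB, 146 for 7 days) and dimethylnitrosamine (DMN, 4 for 7 days), and the non-carcinogens (NC) were cefuroxime (CFX, 250 for 14 days) and nifedipine (Nif, 3 for 14 days). Cyproterone acetate (CPA, 100 for 14 days), thioacetamide (TAA, 19.2 for 7 days) and Wy-14643 (Wy, 60 for 3 days) were left without a class by the study.

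Each compound was compared with the vehicle animals its label names. Control set 1 served Wy, TAA, MPy, Mcarb, DHEA and AA. Nif and CFX were set against control set 2, DMN and CIDB against set 3, and PBO, ETH and DES against set 5, while CPA had set 4 and PB set 6 to itself. The vehicle was corn oil in sets 3 and 4 and methylcellulose in the other sets, as labelled. The labels put sets 1 and 5 at 14 days, also for the compounds dosed for 3 or 7 days, so for DES, PBO, Wy, MPy and TAA dosing time differs from the controls as labelled, although the study's methods call its controls time-matched. Because both GC used set 3 and both NC used set 2, class and control set cannot be told apart.

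Values are log2 levels after RMA normalization, and a difference of 1 is a doubling. The levels of the 78 genes averaged 4.38 to 12.79 over all arrays, and 16 averaged under 6, the dim end of this array. Fibronectin (Fn1), of which hepatocytes secrete the plasma form, was the brightest. Of the liver markers, albumin stood at 15.02 and all 13 measured hepatocyte genes were at or above the 82nd percentile of all probe sets. The activated stellate cell marker Acta2 stood at 7.30 and Des at 6.91, both below the median probe set. The samples are whole tissue, so fewer cells of a type and less RNA per cell cannot be told apart.

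A gene was called where limma gave an adjusted p under 0.05 over all probe sets. At least 1 of the 15 compounds changed 46 of the 78 genes (59%), near the 60.8% of all genes, and the other 32 were called for none. The share called differed strongly between compounds. The steroids DHEA and CPA each lowered 18 of the 78 genes (23.1%), where 9.35% of all genes fell with DHEA and 5.34% with CPA. DHEA raised 3 (background 9.78%) and CPA raised 0 (background 3.2%). At the other end CFX changed none of the 78, and 0% of all genes rose and 0% fell with it; 1 of the 78 had an unadjusted p under 0.05. Mcarb also changed none, against 0.932% of all genes up and 0.25% down, with 5 of the 78 at an unadjusted p under 0.05.

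**Figure D1:**
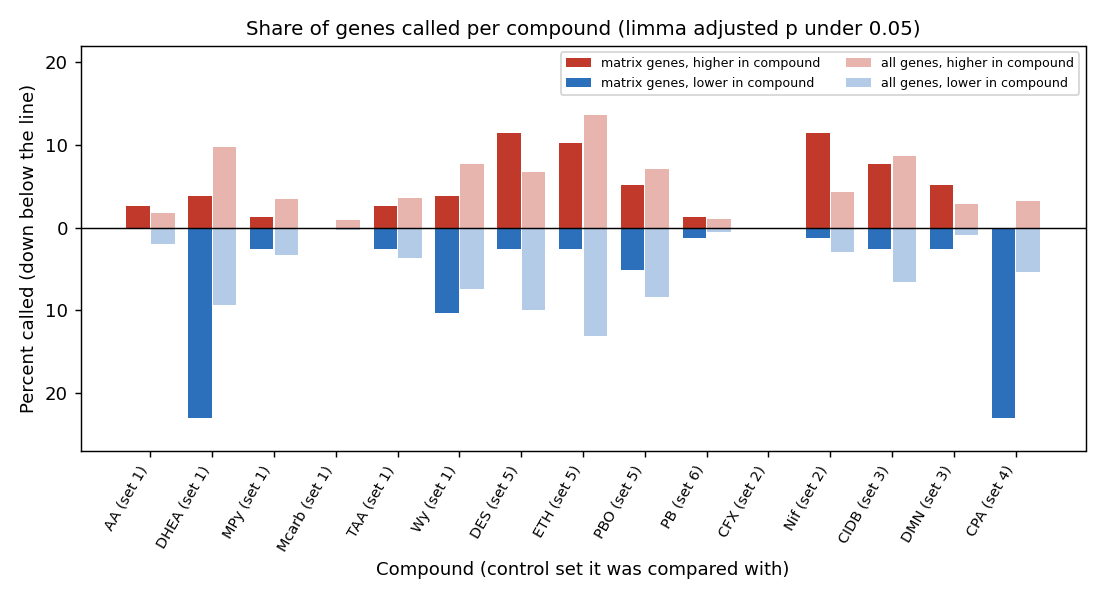
Percent of the 78 matrix genes (dark bars) and of all 10411 genes (pale bars) called per compound by limma at an adjusted p under 0.05; bars above the line count genes higher and bars below the line genes lower in the compound than in its control set. DHEA and CPA stand out with 23.1% of the matrix genes lower.

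The lists of genes that fell with DHEA and CPA overlapped. Of the 18 that each lowered, 14 were shared, which is 77.8% of either list; over all genes 259 were shared, 26.6% of those DHEA lowered and 46.6% of those CPA lowered. Against the other control sets of the same vehicle the genes lowered by both numbered 7. The 2 comparisons share no control animals. The 14 were the fibre-forming chains Col1a2, Col3a1 and Col5a2, the fibril-associated Col14a1, the type VI chains Col6a1 and Col6a3, the laminin chains Lamb1 and Lamb2, Fn1, the proteoglycan Bgn, the inhibitor Timp2, the platelet integrin chain Itga2b, and the stellate genes Vim and Lrat. Timp2 rests on 1 probe set: a second, dimmer one differed by -0.11 with DHEA and by -0.07 with CPA and was called in neither.

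Col3a1, the chain of type III (reticular) collagen, fell most. Its 3 CPA animals read 9.47, 9.66 and 9.22, against 10.93, 11.12 and 11.07 in control set 4. Its 3 DHEA animals read 10.37, 10.46 and 10.01, against 11.54, 11.33 and 11.51 in control set 1. All treated animals lay below all of their controls in both comparisons. The log2 difference was -1.58 ± 0.15 (SE, adjusted p = 9.6e-11) for CPA and -1.18 ± 0.15 (adjusted p = 3.93e-08) for DHEA.

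Col1a2, a chain of type I collagen, read 7.61, 7.46 and 7.17 with CPA, against 8.17, 8.63 and 8.43 in set 4. With DHEA it read 7.97, 7.93 and 7.61, against 8.94, 8.51 and 8.75 in set 1. The differences were -0.999 (adjusted p = 0.000772) and -0.89 (adjusted p = 0.000983), and a second Col1a2 probe set fell by 0.89 with CPA and by 0.97 with DHEA. Col1a1, which encodes the partner chain, differed by -0.15 with CPA (adjusted p = 0.475) and by -0.31 with DHEA (adjusted p = 0.0726); its treated animals lay below their controls, but neither difference passed the test.

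Lrat, the enzyme with which stellate cells esterify vitamin A for storage, read 6.54, 6.89 and 6.57 with CPA, against 7.75, 7.79 and 7.35 in set 4. With DHEA it read 7.08, 7.09 and 6.65, against 7.86, 7.89 and 8.12 in set 1. All 6 treated animals lay below their controls, and the differences were -0.96 and -1.01 (adjusted p = 0.000913 and 0.000156). Vim, the intermediate filament of mesenchymal cells, read 7.64, 7.53 and 7.52 with CPA, against 8.78, 8.57 and 8.55 in set 4, a difference of -1.07 (adjusted p = 0.000127). Col14a1 fell by 1.0 with CPA and by 0.81 with DHEA, and Bgn by 0.80 and 0.40. A second Col14a1 probe set fell by 0.45 with DHEA and was not called with CPA (-0.36, adjusted p = 0.104).

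The basement membrane pair Col4a1 and Col4a2 passed the test with CPA and not with DHEA. Col4a1 read 7.23, 7.33 and 7.24 with CPA, against 8.19, 8.00 and 7.96 in set 4 (-0.79, adjusted p = 7.85e-06), and Col4a2 fell by 0.41 (adjusted p = 0.0158). With DHEA the differences were -0.29 and -0.30, neither called; the difference between the 2 compounds was not tested. CPA also lowered Lamc1 and Sparcl1, and DHEA lowered Sparc, Col6a2, Lama4 and Col18a1. The second probe sets of Col6a2 (0.18 with DHEA) and Lamc1 (-0.18 with CPA) were not called. Sparc, a secreted collagen-binding protein, read 9.32, 9.25 and 9.24 with DHEA, against 9.95, 9.88 and 9.98 in set 1. The 3 genes DHEA raised were Col5a3 (0.43), Col9a2 (0.34) and Col9a1 (0.28). Of the 14 MMPs neither compound changed any.

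**Figure D2:**
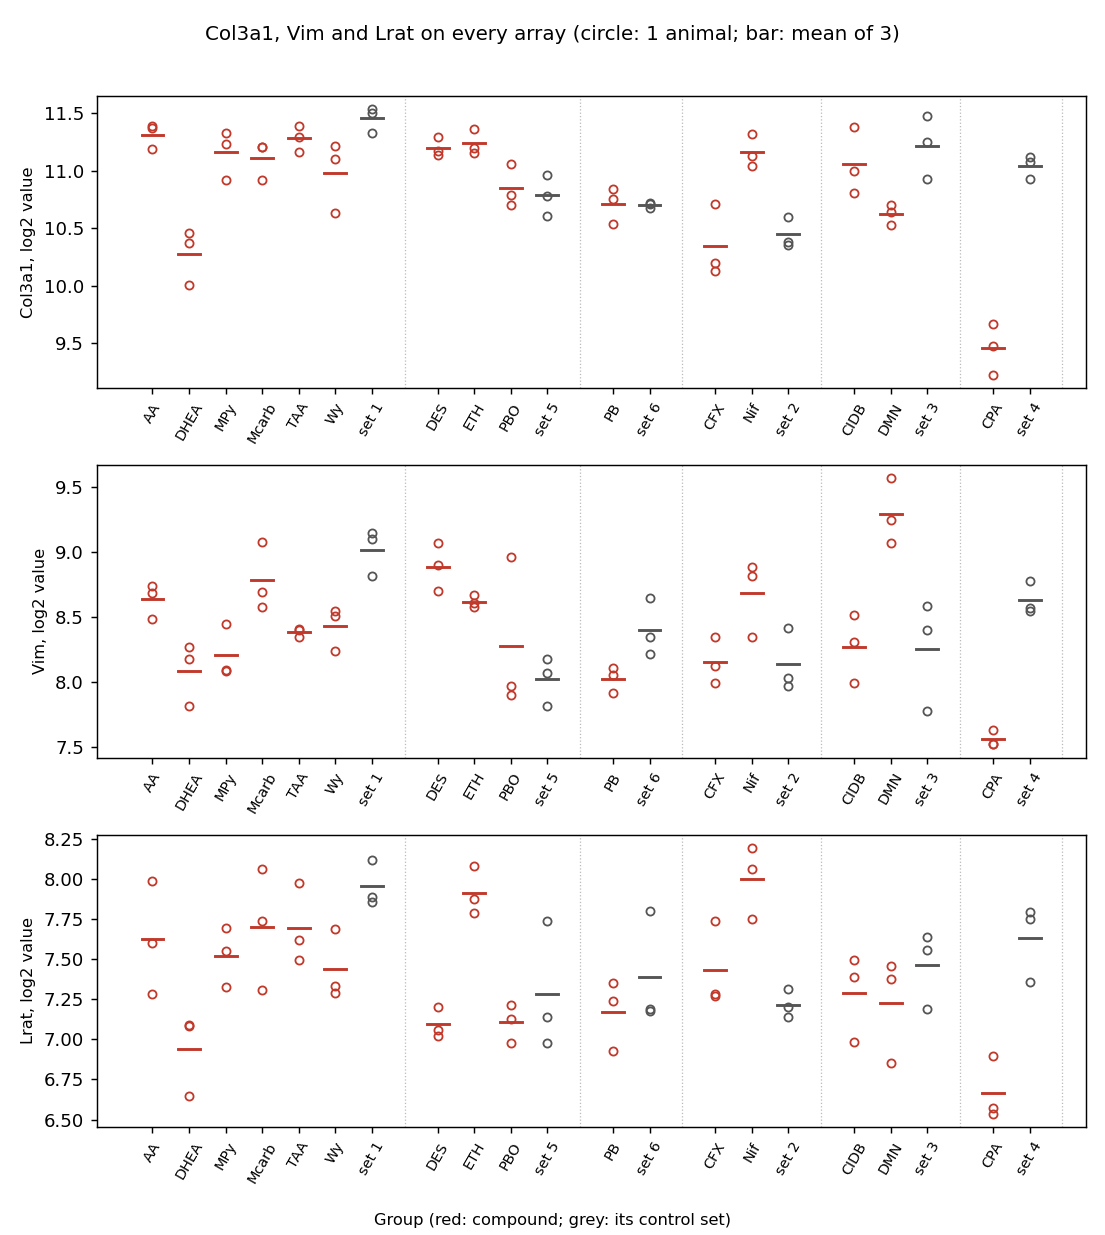
Log2 values of Col3a1, Vim and Lrat on all 63 arrays, by group; red marks compounds, grey the control set they were compared with, each circle is 1 animal and each bar the mean of 3. The DHEA and CPA animals lie below their own controls in all 3 panels, and control set 1 lies above the other methylcellulose sets 2, 5 and 6.

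Control set 1 was itself high in several of these genes. Its 3 Col3a1 values of 11.33 to 11.54 lay above those of set 2 (10.36 to 10.60), set 5 (10.61 to 10.97) and set 6 (10.68 to 10.72), and Vim read 8.82 to 9.14 there, against 7.97 to 8.41 in set 2. Between sets 1 and 2, 6 of the 78 genes differed where 0.797% of all genes did, among them Col3a1 (1.01), Vim (0.88), Col1a2 (0.77) and Col5a2 (0.51), all higher in set 1. Between sets 1 and 5 it was 7 genes (background 1.97%), led by Vim (1.00), Col3a1 (0.67), Col14a1 (0.49) and Timp2 (0.48). Between sets 1 and 6 it was 11 (7.33%), led by Itga1 (1.03), Col3a1 (0.75), Col1a2 (0.70) and Vim (0.62).

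Pairs without set 1 also differed. Sets 2 and 5 differed in 2 genes (2.32%), Bgn (0.38) and Timp2 (0.37), and sets 2 and 6 in 3 (1.85%), Itga1 (1.18), Col18a1 (0.54) and Bgn (0.37). Sets 5 and 6 differed in 7 (10.3%), led by Itga1 (0.82), Col18a1 (0.57), Timp2 (-0.48) and Col6a1 (0.35). The corn oil sets 3 and 4 differed in none of the 78 (background 0.307%; 11 at an unadjusted p under 0.05).

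Against the 9 animals of sets 2, 5 and 6 in place of set 1, DHEA kept 9 of its 21 calls in the same direction: Col3a1 (-0.37, adjusted p = 0.031), Col14a1, Col18a1, Col6a1, Col6a3, Fn1, Lamb1, Sparc and Timp2. Vim then differed by -0.10 and Col1a2 by -0.25, neither called. Over the 15 alternatives run for it, Col3a1 with DHEA ranged between -1.27 and -0.37. CPA against set 3 in place of set 4 kept 14 of its 18 calls, with Col3a1 at -1.77 (adjusted p = 2.33e-08); Vim, Timp2, Lamb2 and Sparcl1 were lost.

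Part of the other matrix genes also passed the test. Of 34 further matrix proteins, DHEA lowered 16 and raised 0 (median -0.22), led by Mgp (-0.94), Fstl1 (-0.69) and the basement membrane linker Nid1 (-0.65). CPA lowered 9 and raised 1 (median -0.03), led by Nid1 (-1.09), Mgp (-0.90) and Fstl1 (-0.77). A further list held 24 genes of TGF-beta and PDGF signalling, among them inhibitors such as Skil and Smad7, so its counts do not measure signalling. Of these 24, DHEA lowered 9 and raised 1, with Ltbp4 at -1.40, Skil at -0.83 and the receptor gene Pdgfra at -0.74. CPA lowered 6 and raised 0, with Ltbp4 at -0.75, Tgfb1 at -0.61 and Tgfbr1 at -0.61. The median over all genes was 0.01 with DHEA and 0.02 with CPA. Of the 16 genes of collagen processing, DHEA lowered P4hb (-0.51) and P4ha2 (-0.30), and CPA lowered 3, led by the collagen chaperone Serpinh1 (-0.74).

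Markers of macrophages, endothelium and stellate cells were lower in part. Of 10 macrophage genes DHEA lowered 7 and CPA 5, Clec4f of Kupffer cells by 1.15 and by 0.90. The mean level of that list was 8.60 to 8.95 with DHEA, against 9.39 to 9.53 in set 1, and 8.69 to 9.07 with CPA, against 9.26 to 9.67 in set 4. Of 11 endothelial genes DHEA lowered 7 and CPA 5, with the VEGF receptor Kdr at -0.79 and -0.90, and the list's mean was 7.72 to 7.95 with DHEA, against 8.19 to 8.31 in set 1, and 7.75 to 7.90 with CPA, against 8.11 to 8.33 in set 4. Of 15 stellate and myofibroblast genes outside the 78, DHEA lowered 6 and raised 1, and CPA lowered 3 and raised 0. Those lowered included Reln (-0.63 and -0.80), with Mylk at -0.54 with DHEA and Pdgfrb at -0.55 with CPA. That list averaged 7.16 to 7.26 with DHEA, against 7.38 to 7.43 in set 1, and 7.24 to 7.28 with CPA, against 7.40 to 7.53 in set 4. Of 13 hepatocyte genes DHEA lowered 7 and raised 2, and CPA lowered 4. Neither compound changed any of 13 lymphocyte or 4 neutrophil genes, and of 9 biliary and oval cell genes each raised 1, Epcam, by 1.03 and 0.97, and lowered none. The other control sets of the same vehicle overlapped in part. In the macrophage list DHEA overlapped sets 2 (8.89 to 9.18) and 5 (8.83 to 9.29), but not set 6. CPA overlapped set 3 (8.82 to 9.28) there. In the endothelial list DHEA overlapped sets 5 (7.80 to 8.13) and 6 (7.94 to 8.08), but not set 2. CPA lay below set 3 (7.91 to 8.17) there. In the stellate list DHEA overlapped set 6 (7.19 to 7.35) alone. CPA lay below set 3 (7.36 to 7.39) there. The part of these cell types in the fall of the matrix genes was not tested.

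Sequences upstream of these genes were taken from RefSeq (build GRCr8) as windows of 250 bases before and 50 from the transcription start, and 59 of the 78 genes had one. Of the 14 genes that fell with both steroids 9 had a window, and those of Col1a2, Vim and Lrat are shown. The windows of Col4a1 and Col4a2 are shown because the 2 genes are read away from each other from 1 shared stretch. Capitals mark matches on either strand to the CCAAT box (spelled CCAAT, or ATTGG when read on the opposite strand), the GC box (GGGCGG, or on the opposite strand CCGCCC) and the TATA box (TATAAA, or on the opposite strand TTTATA). Col1a2 lies at chr4:33518307-33518606 (+), Vim at chr17:81577011-81577310 (+), Lrat at chr2:170571163-170571462 (-), Col4a1 at chr16:84885347-84885646 (+) and Col4a2 at chr16:84885471-84885770 (-).
Col1a2: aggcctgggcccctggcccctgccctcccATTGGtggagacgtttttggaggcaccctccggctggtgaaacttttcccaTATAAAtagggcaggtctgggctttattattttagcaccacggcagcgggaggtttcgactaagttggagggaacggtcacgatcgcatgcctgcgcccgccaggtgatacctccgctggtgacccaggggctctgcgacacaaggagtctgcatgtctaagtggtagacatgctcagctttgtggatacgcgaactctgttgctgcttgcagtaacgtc
Vim: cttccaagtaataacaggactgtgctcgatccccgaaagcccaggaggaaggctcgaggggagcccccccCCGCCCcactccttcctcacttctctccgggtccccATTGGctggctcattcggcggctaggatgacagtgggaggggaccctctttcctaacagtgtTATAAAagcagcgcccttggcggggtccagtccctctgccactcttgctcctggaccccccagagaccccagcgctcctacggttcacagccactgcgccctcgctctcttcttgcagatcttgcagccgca
Lrat: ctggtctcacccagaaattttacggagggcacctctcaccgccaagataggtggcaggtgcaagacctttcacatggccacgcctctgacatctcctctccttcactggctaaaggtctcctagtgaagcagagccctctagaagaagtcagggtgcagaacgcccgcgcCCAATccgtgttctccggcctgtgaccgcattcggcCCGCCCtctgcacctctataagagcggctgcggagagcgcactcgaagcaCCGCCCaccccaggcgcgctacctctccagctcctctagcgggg
Col4a1: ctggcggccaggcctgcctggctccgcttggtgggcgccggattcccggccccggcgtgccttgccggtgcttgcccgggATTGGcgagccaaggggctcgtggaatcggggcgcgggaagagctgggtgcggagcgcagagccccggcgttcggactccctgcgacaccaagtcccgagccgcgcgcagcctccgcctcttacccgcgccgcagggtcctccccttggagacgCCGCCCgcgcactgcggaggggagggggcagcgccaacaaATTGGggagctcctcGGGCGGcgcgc
Col4a2: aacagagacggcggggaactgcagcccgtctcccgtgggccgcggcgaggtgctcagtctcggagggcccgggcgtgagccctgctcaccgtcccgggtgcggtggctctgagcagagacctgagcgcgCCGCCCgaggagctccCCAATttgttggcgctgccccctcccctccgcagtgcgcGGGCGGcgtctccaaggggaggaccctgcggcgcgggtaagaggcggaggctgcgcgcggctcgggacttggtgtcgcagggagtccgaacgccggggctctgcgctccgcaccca

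The Col1a2 and Vim windows each hold 1 CCAAT box and 1 TATA box, Vim with 1 GC box besides, and Lrat holds 1 CCAAT box and 2 GC boxes. The windows of Col4a1 and Col4a2 overlap over 176 bases (chr16:84885471-84885646) with 76 bases between the start sites. Each holds 2 GC boxes, which are the same 2 sites in the overlap read on opposite strands. The CCAAT box was present in 3 of the 9 windows found for the 14 genes that fell with both steroids (33.3%), in 28.8% of the windows of the 59 genes and in 37.5% of all 33469 windows. The GC box was in 44.4%, 47.5% and 33.1% of these, and the TATA box in 22.2%, 18.6% and 14.2%. Of the 9 windows, the 3 with a CCAAT box are those shown for Col1a2, Vim and Lrat. The 2 with a TATA box are those of Col1a2 and Vim. The windows of the 9 that are not shown hold neither box, so those shown do not stand for them. A match is a description of letters and not a binding site.

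Wy, the peroxisome proliferator, lowered 8 of the 78 genes (background 7.38%) and raised 3 (7.67%). Those lowered were Vim (-0.59), Fn1 (-0.50), Col3a1 (-0.47), Timp2 (-0.47), Col6a3, Col18a1, Itga2b and Bgn, and those raised were Col4a5 (0.61), Col5a3 (0.35) and Itga6 (0.29). Against sets 2, 5 and 6 in place of set 1 the sign of Col3a1 turned to 0.34 and that of Vim to 0.25, while Fn1, Timp2, Col18a1 and Col4a5 kept their calls. Timp2 read 8.23, 8.27 and 8.23 with Wy, against 8.71, 8.78 and 8.64 in set 1; a second, dimmer Timp2 probe set differed by 0.02. Leaving out Wy replicate 2 left 5 genes called. Macrophage markers were lower than in set 1 here too (4 of 10, list mean 8.74 to 9.02, against 9.39 to 9.53). So were endothelial ones (6 of 11, 7.91 to 8.00, against 8.19 to 8.31). Macrophage means were 8.89 to 9.18 in set 2, 8.83 to 9.29 in set 5 and 9.03 to 9.77 in set 6. Endothelial means were 8.02 to 8.15, 7.80 to 8.13 and 7.94 to 8.08 there. The Wy animals thus overlapped sets 2 and 5 in the macrophage list and sets 5 and 6 in the endothelial list. The part of these markers was not tested.

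MPy and TAA, both dosed for 7 days, each lowered Vim, by 0.81 and 0.63. MPy changed 3 of the 78 genes, Vim, Col14a1 (-0.45) and the laminin receptor chain Itga3 (0.26); 3.49% of all genes rose and 3.31% fell. TAA raised Lama3 and Itga6 and lowered Vim and Bgn (-0.28), with 3.6% of all genes up and 3.68% down. Lama3, a chain of the laminin under epithelia, read 9.27, 9.02 and 9.19 with TAA, against 8.46, 8.57 and 8.28 in set 1 (0.72, adjusted p = 0.00758). Against the other methylcellulose sets Lama3 and Itga6 kept their calls, whereas Vim differed by 0.02 with MPy and by 0.20 with TAA. The direct comparison of MPy with TAA gave 0 of the 78 (background 2.39%; 5 at an unadjusted p under 0.05).

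The genotoxic carcinogens changed 8 and 6 of the 78 genes. CIDB raised 6 of the 78 (background 8.63%) and lowered 2 (6.62%). DMN raised 4 (2.88%) and lowered 2 (0.855%). Lama5 and Dcn rose with both, and the 2 compounds share control set 3, so these are not independent results.

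Lama5, the laminin chain of vascular and epithelial basement membranes, read 8.54, 8.46 and 9.48 with CIDB and 7.73, 7.45 and 7.48 with DMN, against 6.34, 6.29 and 6.30 in set 3. The differences were 2.52 ± 0.14 (SE, adjusted p = 1.51e-19), a 5.72-fold rise, and 1.24 ± 0.14 (adjusted p = 1.37e-08). CIDB exceeded DMN by 1.27 (adjusted p = 2.45e-09). A second Lama5 probe set, averaging 5.90 on this array, did not rise: it differed by -0.17 with CIDB and by -0.14 with DMN, so the rise rests on 1 probe set, and the mean of both probe sets gave 1.17 and 0.55, still called.

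The Lama5 promoter window (RefSeq, GRCr8, chr3:187695925-187696224, minus strand) is shown because this gene had the largest change of the 78. Capitals again mark the GC box on either strand.
Lama5: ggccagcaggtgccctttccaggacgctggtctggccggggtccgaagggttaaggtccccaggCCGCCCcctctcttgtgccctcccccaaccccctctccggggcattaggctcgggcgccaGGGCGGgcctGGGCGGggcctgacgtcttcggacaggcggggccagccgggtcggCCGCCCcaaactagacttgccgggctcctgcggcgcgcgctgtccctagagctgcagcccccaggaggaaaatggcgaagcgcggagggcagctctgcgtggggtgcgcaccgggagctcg

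It holds 4 matches to the GC box and none to the other two motifs.

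Dcn, the proteoglycan decorin, which coats collagen fibrils, read 8.04, 8.58 and 8.24 with CIDB and 8.31, 7.96 and 8.58 with DMN, against 7.12, 6.88 and 6.72 in set 3. Both groups lay wholly above the controls, with differences of 1.38 ± 0.19 (adjusted p = 3.45e-07) and 1.38 ± 0.19 (adjusted p = 1.79e-06). Against set 4, the 14-day corn oil animals, Dcn remained higher by 0.99 with each compound. Its relative Lum, lumican, passed the test with CIDB alone of the 15 compounds: it read 5.67, 6.70 and 6.33, against 5.00, 5.08 and 5.42 in set 3 (1.07, adjusted p = 0.000502). DMN read 5.17, 4.95 and 5.69 there, and the direct difference of 0.96 passed the test (adjusted p = 0.00181) although the CIDB and DMN animals overlapped. Lum averaged 5.30 over all arrays, at the dim end of this array. The third proteoglycan, Bgn, differed by 0.02 with CIDB and by -0.22 with DMN.

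Timp1, an inhibitor that rises in injured liver, passed the test with DMN alone of the 15 compounds. It read 7.55, 8.16 and 7.85 with DMN, against 7.09, 6.94 and 6.48 in set 3 (1.02, adjusted p = 0.000286), while CIDB read 6.81, 7.08 and 6.78. Vim likewise read 9.07, 9.25 and 9.57 with DMN, against 8.58, 8.40 and 7.78 in set 3 (1.04, adjusted p = 0.000324), and 8.31, 8.52 and 8.00 with CIDB. The direct CIDB minus DMN difference was -0.97 for Timp1 and -1.02 for Vim (adjusted p = 0.000147 and 0.000105). DMN lowered Sparcl1 (-0.75) and Col3a1 (-0.60). Against set 4 the calls of Vim (0.66, adjusted p = 0.103) and Col3a1 (-0.41, adjusted p = 0.269) with DMN were lost, that of Col3a1 also with both corn oil sets pooled. In all, 10 of the 78 differed between the 2 genotoxic compounds, where 14.1% of all genes did.

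CIDB further raised the membrane-bound protease Mmp14 (0.62), Itgb1 (0.40) and Itga6 (0.29) and lowered Col18a1 (-0.40) and Col1a1 (-0.38). The Col1a1 call was lost against set 4, where the difference was -0.01, and it was the only call of Col1a1 in the 15 comparisons. Against set 3, macrophage markers were higher with both compounds: CIDB raised 4 of 10 and DMN 5. Gpnmb rose by 0.97 and 1.78, while each lowered Cd14. The list averaged 9.38 to 9.52 with CIDB and 9.66 to 9.85 with DMN, against 8.82 to 9.28 in set 3. In set 4, the other corn oil set, it averaged 9.26 to 9.67. That range holds the CIDB animals and meets the lowest DMN animal. Of the biliary and oval cell list CIDB raised 4 of 9, led by Epcam (1.01), and DMN 1. Their part in the matrix changes was not tested.

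**Figure D3:**
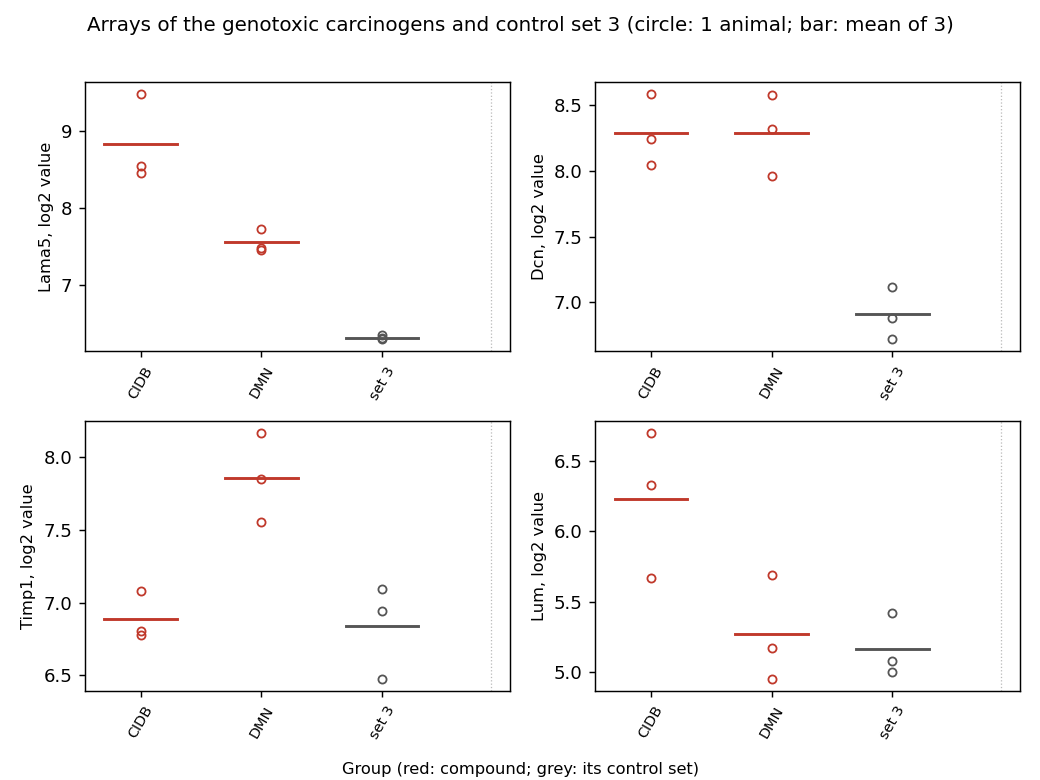
Log2 values of Lama5, Dcn, Timp1 and Lum in the animals given CIDB or DMN (red) and in control set 3 (grey); each circle is 1 animal and each bar the mean of 3. Lama5 and Dcn lie above the controls with both compounds, Timp1 only with DMN and Lum only with CIDB.

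Over compounds, Lama5 and Dcn were also the genes that differed between NGC and GC, while GC and NC were not compared. The mean log2 fold change of Lama5 was 0.21 over the 8 NGC and 1.88 over the 2 GC, a difference of -1.67 ± 0.23 (adjusted p = 0.0331 with limma over compounds). For Dcn the means were 0.07 and 1.38 (-1.31 ± 0.15, adjusted p = 0.0331). They were 2 of the 78 where 0.115% of all genes passed, and the 2 GC share 1 control set. Leaving out 1 compound at a time left 0 to 3 genes called: 0 without DES, Mcarb, MPy, PBO, CFX or Nif, 1 without AA, DHEA, PB or CIDB, 2 without ETH and 3 without DMN. NGC and NC differed in 0 of the 78 (background 0.0192%; 8 at an unadjusted p under 0.05), as did all 10 carcinogens and NC (0.0192%; 6).

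DES raised 9 of the 78 genes (background 6.79%) and lowered 2 (9.99%) after 3 days. Raised were Vim (0.87), Sparc (0.84), Col4a1 (0.75), Mmp14 (0.73), Col3a1 (0.42), Timp2, Timp3, Col15a1 and Lamc1. Sparc read 10.42, 10.28 and 10.52 with DES, against 9.77, 9.39 and 9.55 in set 5 (adjusted p = 7.63e-08). Col4a1 read 8.19, 8.26 and 8.40 with DES, against 7.30, 7.72 and 7.59 in set 5 (adjusted p = 4.71e-06). The treated animals lay above all controls for both genes, and a second probe set of each also rose. Col4a2 differed by 0.29 and was not called. A second Timp2 probe set (0.22) was not called with DES. Against sets 1, 2 and 6 the calls of Sparc, Col4a1, Mmp14, Timp3, Lamc1, Col18a1 and Lama3 were kept, that of Vim was lost (0.37) and Timp2 turned to -0.10. Of 11 endothelial genes DES raised 3 and lowered 0, among them Lyve1 of sinusoidal endothelium (0.95). The mean of that list was 8.12 to 8.17, against 7.80 to 8.13 in set 5. It was 8.19 to 8.31 in set 1, 8.02 to 8.15 in set 2 and 7.94 to 8.08 in set 6. Of the 34 further matrix proteins DES raised 5, among them Nid1 (0.66), and lowered 3. The part of these lists was not tested.

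PBO, also given for 3 days and set against the same controls, raised 4 (background 7.04%) and lowered 4 (8.44%). It raised Col4a5 (0.71), Itga6 (0.50), Col15a1 (0.33) and Lama1 (0.32), and lowered Col18a1 (-0.65), Fn1 (-0.39), Col6a1 (-0.36) and Col19a1 (-0.28). Against sets 1, 2 and 6, Col4a5, Itga6, Lama1 and Col18a1 kept their calls and the other 4 did not. DES and PBO differed directly in 11 of the 78, against 13.6% of all genes. The largest of these differences were Lama3 (-1.03), Mmp14 (0.63), Vim (0.61) and Col4a1 (0.54), given as DES minus PBO. Lama3 read 7.97, 7.61 and 7.96 with DES and 8.95, 8.81 and 8.87 with PBO, on either side of the 8.06 to 8.59 of set 5.

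ETH raised 8 of the 78 genes (background 13.6%) and lowered 2 (13.1%). Itgb1, the beta chain that collagen and laminin receptors share, read 10.38, 10.71 and 10.39 with ETH, against 10.08, 9.87 and 9.75 in set 5 (0.59, adjusted p = 3.47e-06), and its second probe set rose by 0.79. Lrat rose by 0.63, Vim by 0.60, Timp2 by 0.55, Itgb3bp, which encodes a centromere protein, by 0.52, Col3a1 by 0.45, Lama5 by 0.41 and Bgn by 0.29; Itga7 fell by 0.48 and Col18a1 by 0.46. Against sets 1, 2 and 6, Itgb1, Itgb3bp, Lama5 and Itga7 kept their calls and the other 6 did not. A second Timp2 probe set differed by -0.06 and the second Lama5 probe set by -0.21. Macrophage genes rose with ETH: 9 of 10 were higher, Lyz2 by 2.27 and Gpnmb by 1.46, and Cd14 was lower, with a list mean of 9.87 to 9.97, against 8.83 to 9.29 in set 5. Of the biliary and oval cell list 5 of 9 genes rose, among them Krt19 (1.90) and Krt18 (1.39), which averaged 6.12 and 11.3 over all arrays. Their part in the matrix changes was not tested.

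Nif, a calcium channel blocker classed as a non-carcinogen, raised 9 of the 78 genes (background 4.26%) and lowered 1, Mmp24 (2.95%). Col3a1, Col14a1, Col5a2, Lrat and Bgn, which fell with CPA and DHEA, were among those raised. Of these, only Col14a1 kept its call with Nif, CPA and DHEA alike against the other control sets of the same vehicle. Col3a1 read 11.12, 11.32 and 11.04 with Nif, against 10.38, 10.36 and 10.60 in set 2 (0.72, adjusted p = 0.000799). Col14a1 read 9.73, 9.97 and 9.46 with Nif, against 9.08, 8.84 and 9.16 in set 2 (0.69, adjusted p = 0.000277). Lrat read 8.19, 8.06 and 7.75 with Nif, against 7.31, 7.20 and 7.14 in set 2 (0.78, adjusted p = 0.00743). In all 3 the Nif animals lay above every control of their set. Col5a2 (0.51), Col4a2 (0.45), Mmp16 (0.44), Itgb1 (0.36), Bgn (0.33) and Lama2 (0.30) rose as well; Mmp16 averaged under 6, and the second Itgb1 probe set differed by -0.23.

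Set 2 was low in Col3a1, as given above. Against sets 1, 5 and 6 the calls of Col3a1 (0.18), Col5a2 (0.24), Lrat (0.46, adjusted p = 0.0688) and Lama2 (0.17) were lost. Col14a1 (0.66, adjusted p = 0.000109), Bgn, Col4a2, Itgb1, Mmp16 and Mmp24 kept their calls. A second Col14a1 probe set was not called with Nif (0.245, adjusted p = 0.305), and the other Mmp24 probe sets differed by 0.03 and 0.0, so that the mean over Mmp24 probe sets (-0.14) was not called. CFX, labelled with the same control set and 14 days, gives a comparison that uses no control animals. Nif exceeded CFX in 10 of the 78 genes and was lower in none, where 7.02% of all genes differed. The largest were Col14a1 (0.85), Col1a2 (0.85), Col3a1 (0.82) and Col6a3 (0.58). Of the stellate list Nif raised 2 of 15, Reln (0.60) and Ecm1 (0.55), and the list's mean was 7.40 to 7.50 with Nif, against 7.33 to 7.45 in set 2. Leaving out Nif replicate 2 left 5 of the 78 called, and leaving out replicate 3 gave 13.

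**Figure D4:**
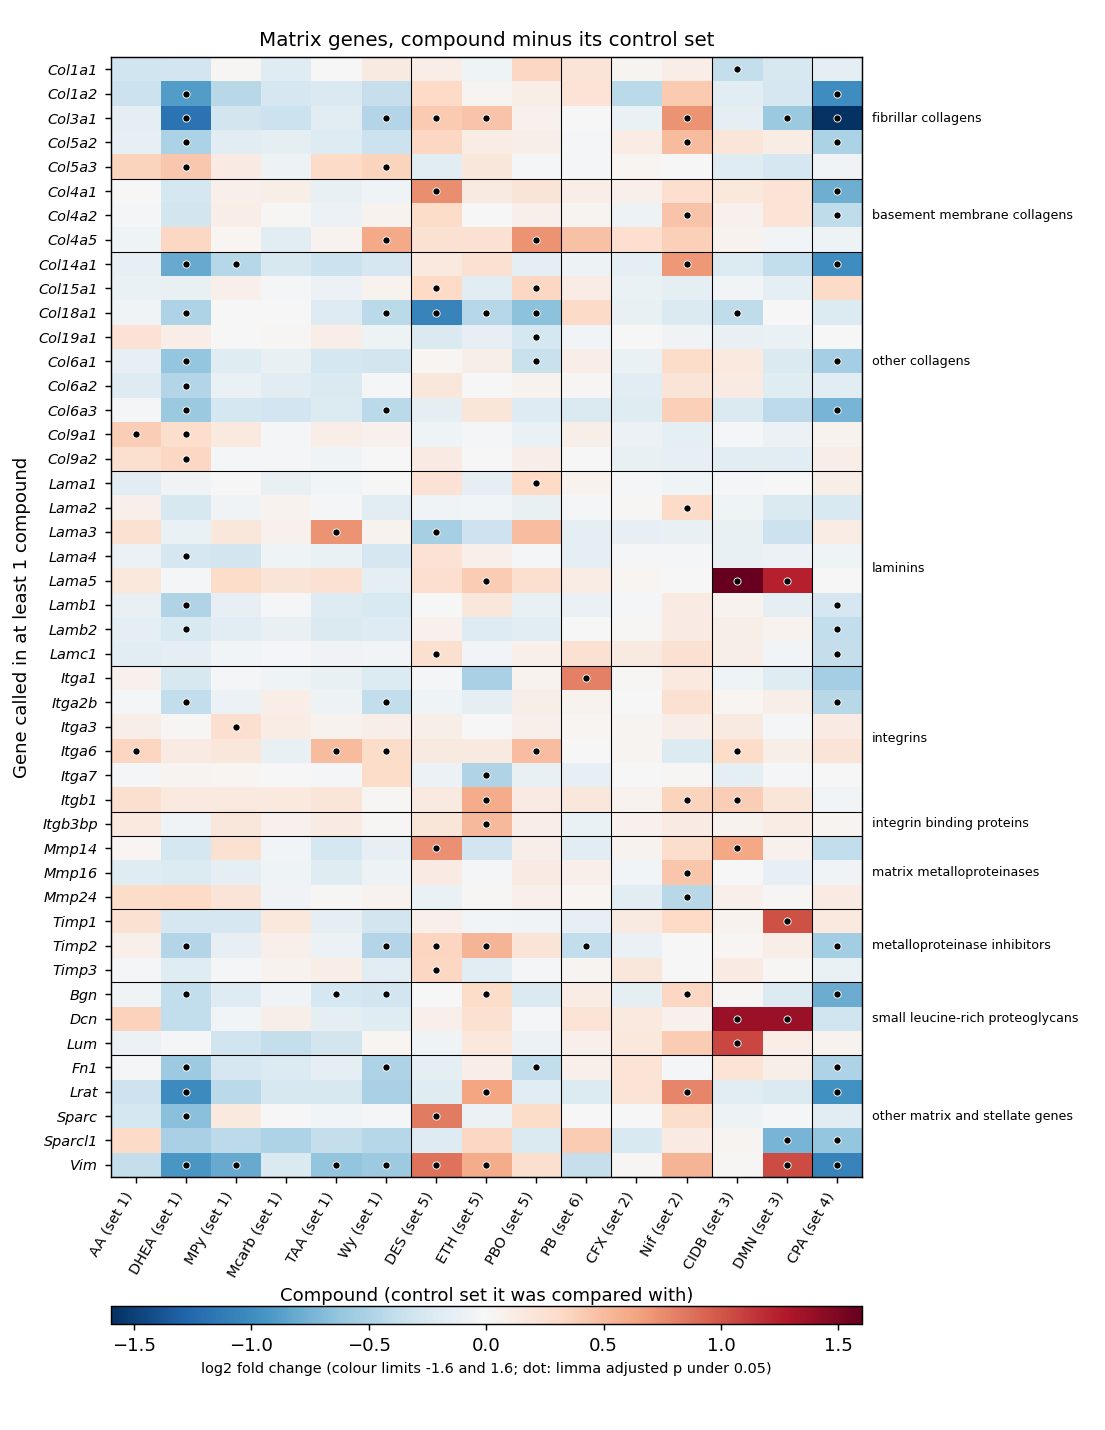
Log2 fold change of each compound against its control set (colour, limited at -1.6 and 1.6; Lama5 with CIDB, at 2.52, lies beyond the scale) for the 46 genes called in at least 1 compound; black dots mark an adjusted p under 0.05 and lines separate gene families and control sets. Vim and Col3a1 carry the most dots, and the metalloproteinases few.

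Across compounds, 3 genes were called 5 or more times in 1 direction. Col18a1, whose product releases endostatin and which hepatocytes express, fell in 6: DES, DHEA, ETH, PBO, CIDB and Wy. It read 10.53, 10.52 and 10.52 with DES, 11.06, 10.83 and 10.94 with PBO and 11.32, 10.96 and 11.13 with ETH, against 11.57, 11.78 and 11.44 in set 5. All 9 animals lay below the 3 controls, and the differences were -1.07, -0.65 and -0.46 (adjusted p = 9.54e-11, 1.29e-05 and 0.000894). A second, equally bright Col18a1 probe set fell by 0.81, 0.54 and 0.59, and by 0.31 with Wy, but was not called with DHEA (-0.17, adjusted p = 0.278) or CIDB (-0.07, adjusted p = 0.729). Set 5 was high in Col18a1, above set 6 by 0.57, and against the other sets of the same vehicle the calls for DES, PBO, DHEA, CIDB and Wy were kept and that of ETH was lost (-0.17). With PB the difference was 0.30 and not called.

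Itga6, the alpha chain of a laminin receptor, rose in 5: TAA (0.51), PBO (0.50), AA (0.35), Wy and CIDB (0.29 each). It read 7.34, 7.30 and 7.32 with PBO, against 6.65, 6.84 and 6.97 in set 5, and 7.56, 7.33 and 7.31 with TAA, against 6.85, 6.88 and 6.96 in set 1. In both the treated animals lay above all controls, and these calls held under all 15 alternatives run for each, whereas the Wy call held under 4 of 15, the AA call under 5 and the CIDB call under 8. A second Itga6 probe set was called in none of the 5, with differences of -0.01 to 0.16. Vim fell in 5 (DHEA, MPy, CPA, TAA and Wy) and rose in 3 (DES, ETH and DMN), and all of its falls but that with CPA were against set 1. In all, 12 genes were called up in some compounds and down in others.

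**Figure D5:**
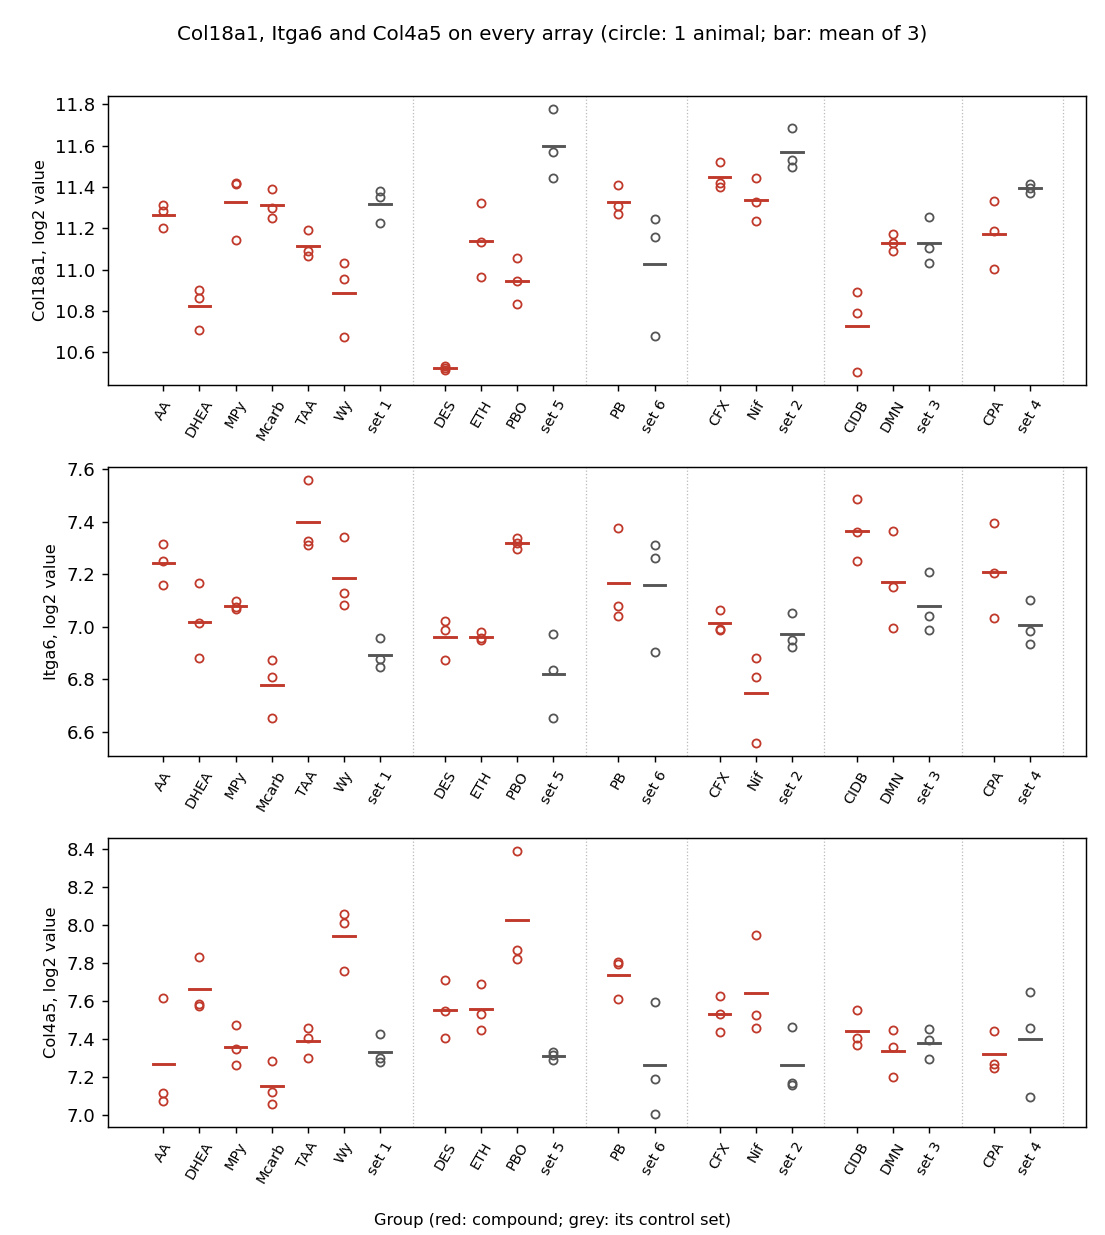
Log2 values of Col18a1, Itga6 and Col4a5 on all 63 arrays, by group; red marks compounds, grey the control set they were compared with, each circle is 1 animal and each bar the mean of 3. The 3 DES animals read 10.52 to 10.53 for Col18a1, below control set 5, and Col4a5 stands above its controls with PBO and Wy.

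Col4a5, a chain of the type IV collagen of specialised basement membranes, rose with PBO and Wy, both given for 3 days. It read 8.39, 7.87 and 7.82 with PBO, against 7.33, 7.32 and 7.29 in set 5, and 8.01, 7.76 and 8.06 with Wy, against 7.42, 7.30 and 7.28 in set 1. The treated animals lay above all controls in both, and each call held under all 15 alternatives (0.53 to 0.82 with PBO, 0.55 to 0.70 with Wy).

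AA, Mcarb and TAA are small structural relatives, acetamide with an amide, methylcarbamate with a carbamate and thioacetamide with a thioamide group, but their doses (3000, 400 and 19.2 mg/kg/day) and, for TAA, the days differ, so the values stand side by side only. AA raised Itga6 and Col9a1 (0.39), 2 of the 78 (background 1.82%), and lowered none (1.95%), Mcarb none and TAA the 4 given above. Both AA calls were lost with the methylcellulose controls pooled and against sets 2, 5 and 6, where Col9a1 differed by 0.14 (adjusted p = 0.384) and Itga6 by 0.26 (adjusted p = 0.0995). Itga6 read 7.32, 7.16 and 7.25 with AA, 7.56, 7.33 and 7.31 with TAA and 6.65, 6.81 and 6.87 with Mcarb, against 6.85, 6.88 and 6.96 in set 1. Both AA and TAA thus lay above the controls and Mcarb did not. Sparcl1, a secreted relative of Sparc, read 7.70, 7.86 and 8.16 with AA, 7.44, 7.16 and 7.07 with TAA and 7.21, 7.10 and 7.03 with Mcarb. Mcarb minus AA gave 5 of the 78 (background 4.62%), the largest being Sparcl1 (-0.79), Itga6 (-0.46), Col5a3 (-0.44) and Col9a1 (-0.41). TAA minus AA gave 4 (8.43%), Sparcl1 (-0.69), Itgae (0.51), Col9a1 (-0.28) and Itgb1bp2 (-0.23). Fitting only the 6 arrays compared left 0 of the Mcarb minus AA calls and 1 of the TAA minus AA calls. None of these 9 calls can be told apart from the difference in dose.

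PB changed 2 genes, Itga1 up (background 0.999%) and Timp2 down (0.509%). A second Timp2 probe set differed by 0.03 with PB. Itga1, the alpha chain of a collagen receptor, read 9.22, 9.17 and 9.32 with PB, against 8.53, 9.22 and 7.57 in set 6. The groups overlap and the 0.80 rests on the low and scattered controls: in sets 1, 2 and 5 Itga1 read 9.003 to 9.78, and against those the difference was -0.21.

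Few MMPs changed. Of 14, Mmp14 was called in DES and CIDB, Mmp16 and Mmp24 in Nif, and the other 11 in none, with 7 of the 14 averaging under 6. The gelatinase Mmp2 differed by -0.16 to 0.11 in the 15 comparisons. Of the 13 integrins, Itga1, Itga2b, Itga3, Itga6, Itga7 and Itgb1 were called, and the leukocyte chains Itgad, Itgae, Itgam and Itgb7 in no compound. Over the 32 genes called in none, differences ran from -0.40 to 0.31.

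Among the remaining genes, Fn1 fell in DHEA, PBO, CPA and Wy and was called up in none, with differences of -0.58 to 0.22 over the 15 compounds. Lamb1, a chain of many laminins, ranged between -0.48 with DHEA and 0.18 with ETH, and Lamc1, the common gamma chain, between -0.38 with CPA and 0.26 with DES. Timp3, an inhibitor that stays bound to the matrix, ranged between -0.19 with DHEA and 0.33 with DES. Col1a1 ranged between -0.38 with CIDB and 0.33 with PBO, and Col5a1, a fibril-nucleating chain called in no compound, between -0.20 with DHEA and 0.22 with DES. Itgb1 ran from -0.04 with CPA up to 0.59 with ETH and was called up in ETH, CIDB and Nif. Itgb2, the leukocyte beta chain, carried no probe set of its own symbol in the annotation used and was not analysed here.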

How the data were processed

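The deposited values were log2 levels of 15866 probe sets on 63 arrays, which the authors made with RMA (affy package) from scanned Affymetrix RAE230A arrays; depth does not apply, and the number of arrays limits the precision. Probe sets were named through the array annotation, 12783 with 1 symbol, 312 with several and 2771 with none. Each gene was represented by its probe set of highest mean over all arrays. Group means of all 21 groups were fitted with limma 3.58.1 (R 4.3.3), with Benjamini-Hochberg adjustment across every probe set and a threshold of 0.05. Background percentages are over 10411 genes. Classes were compared with limma over the compounds' log2 fold changes. The fits were tested on simulated data.

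The genes named were 24 listed matrix genes, up to 5 called per direction and compound whose arrays did not overlap the controls, those called 5 or more times in 1 direction, the 4 largest calls of each other contrast and the 3 largest of each further list; some further calls were named to complete a count. The members, lists and rules were chosen with earlier results of these data known, so no list was tested as a set. Alternatives covered control sets, array weights, the samples fitted, dim probe sets, normalization, probe set choice and single arrays left out. The labels and the methods name the vehicle of the non-oil controls differently (methylcellulose and carboxymethyl cellulose).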

Additional observations from a re-analysis of the deposited data

Results flagged for a closer look

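These differences between compounds passed limma's test of the difference itself (adjusted p under 0.05 over all probe sets) and are given as log2 values, the first compound minus the second. CIDB and DMN, both dosed for 7 days, differed in Lama5 (1.274), Vim (-1.021), Timp1 (-0.967) and Lum (0.961). DES and PBO, both dosed for 3 days, differed in Lama3 (-1.031), Mmp14 (0.63), Vim (0.61) and Col4a1 (0.539). Nif and CFX, both dosed for 14 days, differed in Col14a1 (0.848), Col1a2 (0.848), Col3a1 (0.818) and Col6a3 (0.576).

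Mcarb and AA, at different doses, differed in Sparcl1 (-0.794), Itga6 (-0.464), Col5a3 (-0.443) and Col9a1 (-0.406). TAA and AA, which differ in dose and days, differed in Sparcl1 (-0.685), Itgae (0.505), Col9a1 (-0.282) and Itgb1bp2 (-0.231). Fitted on only the 6 arrays compared, 0 genes passed for Mcarb minus AA and 1 for TAA minus AA. Over compounds the NGC minus GC difference passed the test for Dcn (-1.31) and Lama5 (-1.669).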

How the results depend on the processing

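Of 114 calls of matrix genes over the compounds, 41 were kept under every alternative run. Control sets mattered most: 62 of 114 kept direction and call against the other sets of the same vehicle, where 8 changed sign, and 74 with controls of the same vehicle pooled, where 2 did. Pooled, Col3a1 (0.136) and Vim (0.037) turned with Wy. Against the other sets, Timp2 turned with DES (-0.098), Vim with MPy (0.021), Itga1 with PB (-0.207), Bgn and Vim with TAA (0.026 and 0.197), and Bgn, Col3a1 and Vim with Wy (0.002, 0.339 and 0.245). Numbers of genes called then became 5 for AA, 13 for DHEA, 12 for Mcarb, 9 for MPy, 6 for PB, 2 for CFX, 7 for TAA and 7 down in both DHEA and CPA; pooled, 2 for Mcarb and 7 for MPy. With array weights they were 5 for AA, 7 for DES, 6 for MPy, 0 for PB, 14 for CIDB, 20 for DMN, 19 for Nif, 11 for TAA and 18 for Wy. Fitting only the 6 arrays compared gave 7 for DES, 0 for PB, 4 for PBO, 7 for Wy, 1 for MPy minus TAA, 0 for Mcarb minus AA, 1 for TAA minus AA, 1 for set 1 minus set 6, and 0 for sets 1 minus 5, 2 minus 5, 2 minus 6 and 5 minus 6. AA gave 1 without dim probe sets and 1 after a further quantile normalization, and with the mean of all probe sets of a gene PB gave 1 and CIDB 5. The cause was not tested.

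Leaving out 1 array gave 1 to 2 genes for AA, 0 to 0 for CFX, 5 to 7 for CIDB, 14 to 16 for CPA, 12 to 17 for both DHEA and CPA, 4 to 7 for DMN, 5 to 9 for DES, 17 to 23 for DHEA, 7 to 11 for ETH, 0 to 1 for Mcarb, 0 to 3 for PB, 1 to 3 for MPy, 2 to 3 for TAA, 5 to 12 for Wy, 5 to 8 for PBO and 5 to 13 for Nif. Leaving out 1 compound gave 0 to 3 for NGC minus GC. Replicate numbers were shared with the controls for CPA and PB only; same-numbered arrays did not deviate together (correlations -0.153 to 0.165), and the replicate block left 17 genes called for CPA and 0 for PB. With 3 arrays a group, an exact two-sided permutation test of 1 gene cannot go below 0.1.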
